A study of Homo sapiens and Mus musculus with 27 samples.

Results

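The 10 genes described here encode parts of the T cell receptor complex and the molecules that act beside it: the CD3 subunits Cd3d, Cd3e and Cd3g, the zeta chain Cd247, the coreceptors Cd4, Cd8a and Cd8b1, the kinase Lck, the inhibitory receptor Cd5 and the costimulatory receptor Cd28. They were listed by name as genes of T cells, by a rule that uses no measured value, though the list was drawn up with earlier results of these data known. All 10 were found among the 25239 genes of the count table for 4T1 tumours, and all 10 were among the 15846 genes tested. 4T1 is a mouse mammary carcinoma line, and here it was grown as tumours in Balb/c mice, whose immune system is intact. RNA was sequenced in bulk from 9 tumours in 3 groups of 3. The first group received vehicle. The second received bortezomib, a proteasome inhibitor, at 1 mg/kg every 4 days together with TM, an agent whose name the labels do not spell out, at 0.05 mg/ml in the drinking water. The third received the same bortezomib schedule with AMD3100, an antagonist of the chemokine receptor CXCR4, at 5 mg/kg every 2 days. There was no group with bortezomib alone, so the effect of bortezomib and that of the second agent cannot be told apart. The age and sex of the mice, and the number of mice behind a tumour sample, were not given in the labels. Beyond the statement that the samples are biological replicates, nothing describes how they arose, and p-values measure the spread between these 9 samples.

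A T cell recognises a peptide on an MHC molecule through the variable chains of its receptor, which have no signalling tail of their own. The signal is carried by the CD3 subunits and the zeta chain, whose cytoplasmic motifs are phosphorylated by Lck, a kinase that the coreceptors bring to the complex. CD4 marks helper and regulatory T cells, which read MHC class II, and CD8 marks cytotoxic T cells, which read MHC class I. In a tumour, transcripts of these genes come mainly from infiltrating T cells and not from the carcinoma cells. In bulk RNA a lower level from fewer T cells and one from less RNA per T cell cannot be told apart.

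Counts per library ran from 38407536 to 50735374, and 17519 to 18137 genes had at least 1 count in a tumour. Epithelial keratins were present in every sample: Krt8 lay between 557 and 1345 CPM (the usual unit of a count relative to its library total, here scaled by TMM factors), and Krt18 between 341 and 872 CPM. For replicate 1 of the vehicle group, some labels name a species and a line that belong elsewhere in the series, while the title, the name of the library and the header of its column say 4T1. It was kept, and the calls, the members' differences and the 3 tested ratios were also computed without it. No gene of the table was called in any of the 3 comparisons with edgeR's quasi-likelihood test, where called means a Benjamini-Hochberg adjusted p under 0.05. At an unadjusted p under 0.05 there were 688 genes for bortezomib with TM against vehicle, 1144 for bortezomib with AMD3100 against vehicle and 454 between the treated groups. DESeq2 called 3, 17 and 6 genes in the same order, none of them a member, and limma-voom called none.

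Tumours of one group differed widely in their level of T cell receptor genes, and the groups overlapped. Summed over the 10 genes it was 68.3, 31.0 and 174 CPM in vehicle tumours 1, 2 and 3. In tumours given bortezomib with TM the sum was 481, 185 and 74.8 CPM. In tumours given bortezomib with AMD3100 it was 792, 83.1 and 379 CPM. Each treated group thus held 1 tumour inside the range of the vehicle group, and the highest vehicle tumour lay above the lowest tumour of both treated groups. As a share of all counts, the 10 genes took 0.00303% in vehicle tumour 2 and 0.0814% in AMD3100 tumour 1.

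**Figure D1:**
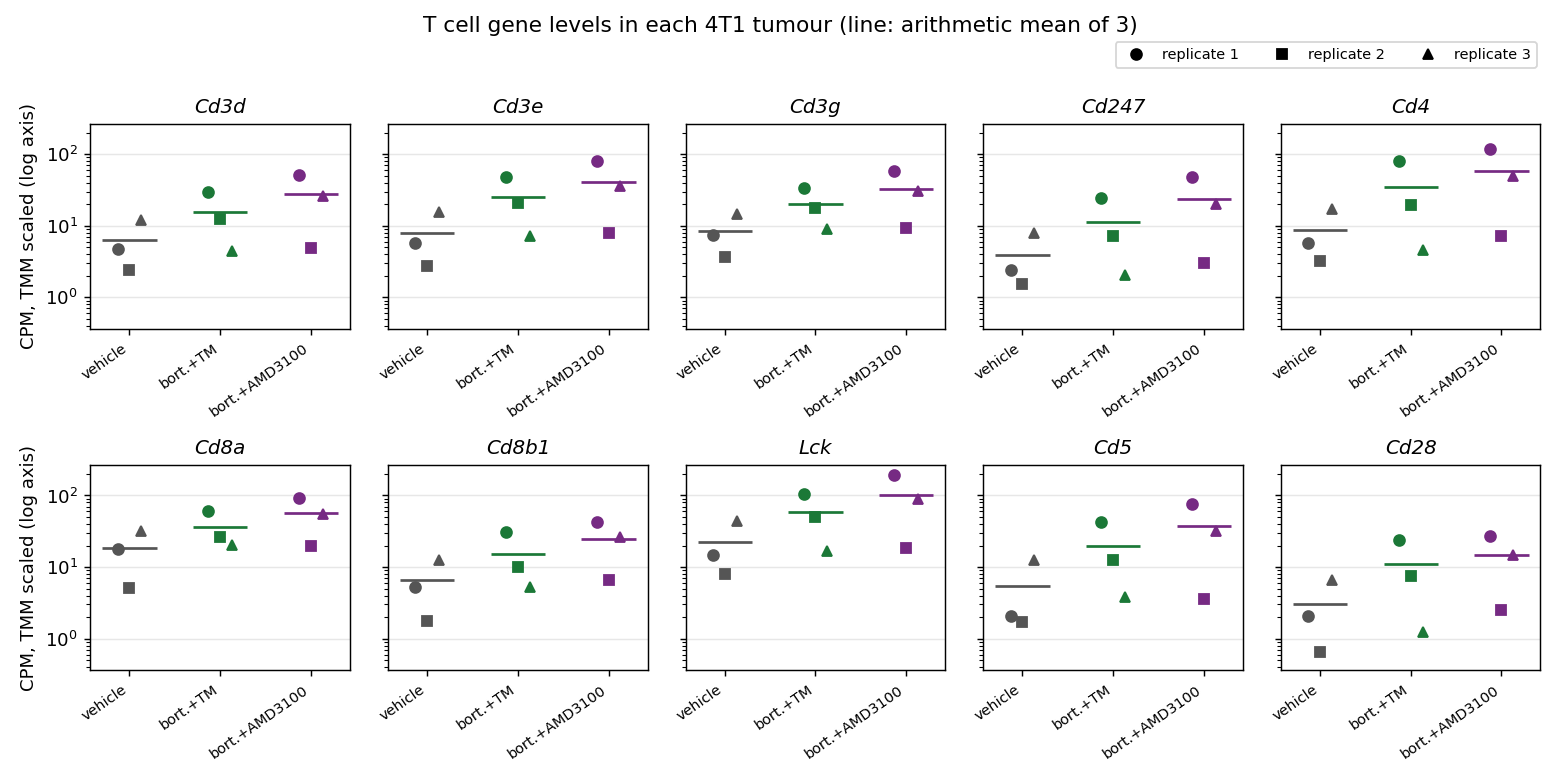
Level of each of the 10 genes in each of the 9 tumours, in CPM on a log axis, with points for single tumours coloured by group. AMD3100 tumour 1 is the highest and vehicle tumour 2 the lowest for all 10 genes, and the 3 groups overlap for each gene.

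Among the signalling subunits, Cd3e, which pairs with the delta or the gamma subunit, was measured at 5.81, 2.78 and 15.4 CPM in vehicle tumours 1 to 3. It stood at 47.9, 21.01 and 7.19 CPM with bortezomib and TM, and at 80.3, 7.84 and 35.9 CPM with bortezomib and AMD3100. The 2 high tumours of each treated group lay above all vehicle tumours, and the remaining one lay within the vehicle range. Cd3e was 1.66 (SE 0.92) log2 units higher with TM than with vehicle and 2.37 (SE 0.94) log2 units higher with AMD3100, with adjusted p of 0.887 and 0.634 (edgeR). The 95% interval of the first difference ran from -0.41 to 3.73 and that of the second from 0.25 to 4.48.

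Cd3d, the delta subunit, had 4.70, 2.40 and 11.9 CPM in the vehicle tumours, 29.9, 12.3 and 4.49 CPM with TM, and 51.5, 4.98 and 25.9 CPM with AMD3100. Its TM tumour 3 was below vehicle tumour 1, and its AMD3100 tumour 2 was barely above it. The gamma subunit Cd3g had 7.39, 3.69 and 14.4 CPM with vehicle, 34.0, 17.7 and 8.93 CPM with TM, and 58.0, 9.20 and 30.5 CPM with AMD3100. Of the 10 genes it varied least in log2 level within groups, with a pooled SD of 1.108. Its difference from vehicle was 1.25 (SE 0.71) with TM and 1.94 (SE 0.73) with AMD3100 in log2 units, and that of Cd3d was 1.30 (SE 0.90) and 2.12 (SE 0.92).

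Cd247 encodes the zeta chain, the subunit with the most signalling motifs, which is also used by receptors of NK cells. Its level was 2.38, 1.54 and 7.88 CPM with vehicle, 24.4, 7.29 and 2.05 CPM with TM, and 48.6, 3.02 and 20.1 CPM with AMD3100. TM tumour 3 fell between vehicle tumours 1 and 2. The group means were 3.94 ± 3.44, 11.2 ± 11.7 and 23.9 ± 23.03 CPM (SD, n = 3 each). In both treated groups the SD of Cd247 was about as large as the mean.

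Both kinds of coreceptor were present in every tumour. Cd4 was at 5.71, 3.19 and 17.2 CPM in the vehicle tumours, at 80.5, 19.8 and 4.62 CPM with TM, and at 119, 7.09 and 49.6 CPM with AMD3100. Its TM tumour 3 lay below vehicle tumour 1, while its TM tumour 1 was the second highest of the 9. The highest tumour had 37.5 times the Cd4 level of the lowest. Cd4 was 2.00 (SE 1.14) log2 units above vehicle with TM and 2.75 (SE 1.17) with AMD3100. In mouse tissue Cd4 is chiefly a gene of T cells, with some dendritic cells also carrying it.

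Cd8a, the alpha chain of the CD8 coreceptor, was at 17.9, 5.16 and 32.2 CPM with vehicle, 60.8, 26.7 and 20.2 CPM with TM, and 93.4, 19.9 and 55.8 CPM with AMD3100. Vehicle tumour 3 exceeded 2 of the 3 TM tumours and 1 of the 3 AMD3100 tumours. Of the 10 genes Cd8a had the smallest log2 difference from vehicle in both comparisons, at 0.96 (SE 0.71) with TM and 1.61 (SE 0.72) with AMD3100. The beta chain Cd8b1, which is more restricted to conventional T cells than the alpha chain, was at 5.34, 1.77 and 12.7 CPM with vehicle, 30.8, 9.86 and 5.32 CPM with TM, and 42.1, 6.55 and 26.2 CPM with AMD3100. It was 1.21 (SE 0.87) and 1.91 (SE 0.88) log2 units above vehicle in the treated groups. For both chains the tumour with the lowest value was vehicle tumour 2, as for every other member.

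Lck, the kinase that starts signalling at the receptor, was at 14.9, 8.12 and 43.6 CPM with vehicle, 106, 50.7 and 17.01 CPM with TM, and 196, 18.4 and 88.0 CPM with AMD3100. TM tumour 3 and AMD3100 tumour 2 stood just above vehicle tumour 1 and well below vehicle tumour 3. The difference from vehicle was 1.38 (SE 0.91) log2 units with TM and 2.18 (SE 0.93) with AMD3100.

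Cd5, a receptor that dampens signalling through the complex and is also found on a subset of B cells, was at 2.05, 1.69 and 12.6 CPM with vehicle, 42.1, 12.6 and 3.77 CPM with TM, and 75.1, 3.58 and 32.2 CPM with AMD3100. Its range over the 9 tumours, 44.3-fold, was the widest of the 10 genes, and its pooled within-group SD of 1.88 log2 units was also the largest. Cd28, the receptor for CD80 and CD86 that gives the second signal for activation, was at 2.05, 0.658 and 6.54 CPM with vehicle, 24.2, 7.41 and 1.22 CPM with TM, and 26.8, 2.50 and 14.7 CPM with AMD3100. TM tumour 3 was below vehicle tumour 1 for Cd28. The lowest value of Cd28 rested on 26 counts, the fewest behind any value of the 10 genes. Cd5 was 1.83 (SE 1.18) and Cd28 1.82 (SE 1.14) log2 units above vehicle with TM, against 2.75 (SE 1.21) and 2.25 (SE 1.16) with AMD3100.

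In 10 of 10 genes the mean CPM was highest with bortezomib and AMD3100, lower with bortezomib and TM, and lowest with vehicle. The neighbours in this order overlapped for each of the 10 genes. The tumours kept nearly the same order from gene to gene: AMD3100 tumour 1, TM tumour 1 and AMD3100 tumour 3 held ranks 1, 2 and 3 for all 10, and vehicle tumour 2 was last for all 10. Vehicle tumour 3 and TM tumour 2 shared ranks 4 and 5. AMD3100 tumour 2 took ranks 6 and 7, vehicle tumour 1 ranks 7 and 8, and TM tumour 3 ranks 6 to 8. The pooled SD within groups had a median of 1.45 log2 units over the 10 genes, compared with 0.264 over all genes tested, and each member stood in the upper part of the tested genes in this spread, at the percentile 93.4 (Cd3g) or higher.

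Against vehicle, bortezomib with TM gave a positive log2 difference for 10 of 10 genes, where 50.5% of all genes tested were above 0. The median of the members was 1.45 log2 units, with single values from 0.96 for Cd8a to 2.00 for Cd4, and the median of all genes tested was 0.0027. None of the 10 was called, where 0% of all genes were called, and none had an unadjusted p under 0.05, where 4.34% of all genes did and 2.29% did in the direction of higher with TM (edgeR). Unadjusted p ran from 0.103 for Cd3e to 0.206 for Cd8a, and the adjusted p was 0.887 for each. Every 95% interval held 0, with upper bounds from 2.55 to 4.58 log2 units. No member had its 3 TM tumours above the 3 vehicle tumours, as 4.96% of all genes did, or below them, as 5.01% did. DESeq2 called 0.0189% of genes and no member. The size of the difference depended on single tumours: without TM tumour 1 the median of the members was 0.50 log2 units, and without vehicle tumour 3 it was 2.42.

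Bortezomib with AMD3100 gave larger differences from the same vehicle tumours. All 10 genes were above 0, as were 51% of genes tested, with a median of 2.22 log2 units for the members and 0.0061 for all genes. Single values ran from 1.61 for Cd8a to 2.75 for Cd5. None was called, where 0% of all genes were called, and the adjusted p was 0.634 for each (edgeR). At an unadjusted p under 0.05 there were 7 of 10 members, all but Cd8a, Cd8b1 and Cd28, against 7.22% of genes in either direction and 4.03% of genes in the direction of higher with AMD3100. None of the 10 had its 3 AMD3100 tumours above all vehicle tumours, as 6.02% of genes did, or below them, as 7.34% did. The count of 7 depended on single tumours. It was 0 without vehicle tumour 1, without vehicle tumour 2 or without AMD3100 tumour 1, 2 without TM tumour 2 or AMD3100 tumour 3, and 10 without vehicle tumour 3, TM tumour 3 or AMD3100 tumour 2. It was 0 with limma-voom and 9 with DESeq2, which called no member and 0.107% of genes. The median of the members was 1.38 log2 units without AMD3100 tumour 1.

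The treated groups were closer to each other. AMD3100 tumours were above TM tumours by 0.43 log2 units for Cd28 to 1.09 for Cd247, with a median of 0.73, and 52% of all genes tested were above 0. No member was called, where 0% of genes were called, and no unadjusted p was under 0.05, where 2.87% of genes had one and 1.39% had one in the direction of higher with AMD3100. DESeq2 called 0.0379% of genes and no member. Unadjusted p ran from 0.326 to 0.708 and the adjusted p was 0.996 (edgeR). The 95% intervals reached from as low as -2.05 to as high as 3.49 log2 units, so differences of either sign remain within them. None of the 10 had its AMD3100 tumours all above its TM tumours, where 3.68% of genes did, or all below them, where 3.69% did. Without AMD3100 tumour 1 the median was -0.07 and 3 of 10 genes were above 0, and without TM tumour 3 the difference of Cd28 was -0.10. The 2 comparisons with vehicle share the vehicle tumours, so their common direction is not independent.

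**Figure D2:**
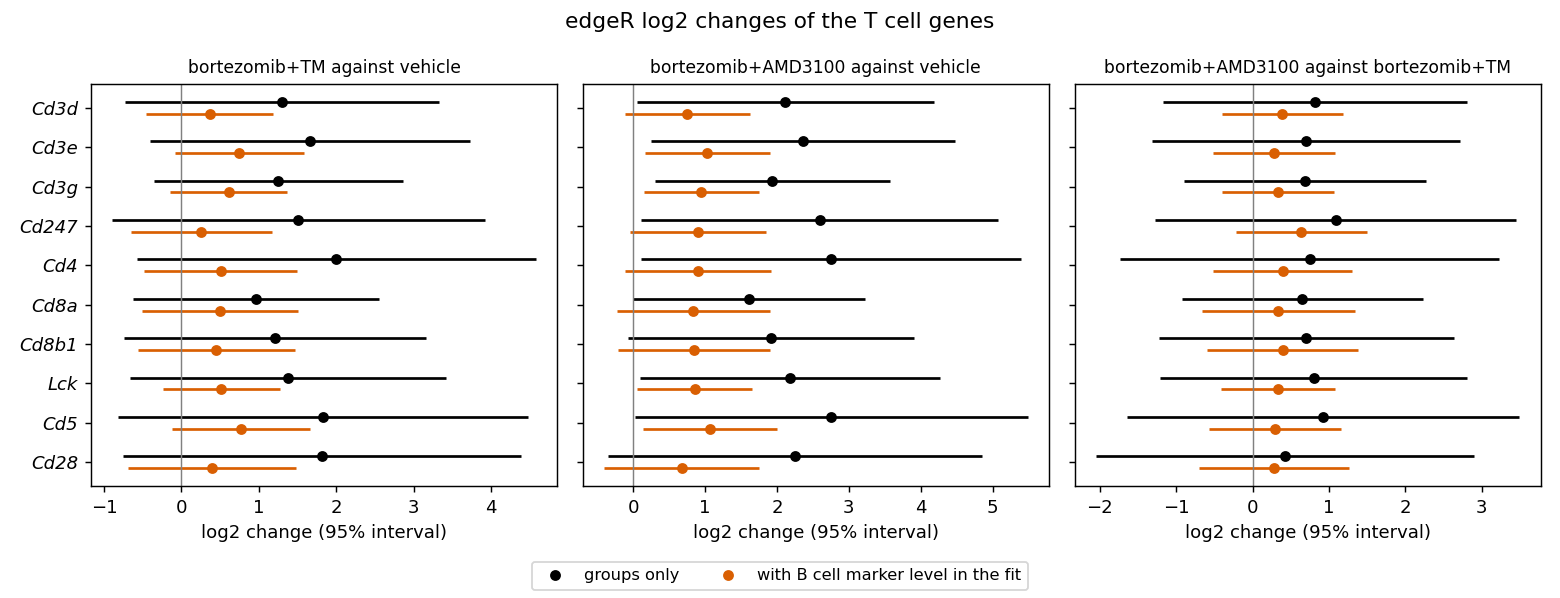
Log2 difference of each of the 10 genes in the 3 comparisons, with 95% intervals from edgeR, without and with the B cell marker level of the tumour in the fit. All values without the B cell level are above 0, from 0.43 to 2.75, and those with it are smaller, with medians of 0.50, 0.87 and 0.34.

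Markers of B cells moved over the tumours with the T cell receptor genes. All 10 B cell markers fixed for the purpose were detected and tested, none was at 0 in every tumour, and their sum was 17.3, 15.5 and 170.4 CPM in the vehicle tumours, 676, 307 and 7.87 CPM with TM, and 996, 10.7 and 549 CPM with AMD3100. Tumours thus fell into 5 with 170.4 CPM or more and 4 with 17.3 CPM or less, and the 5 were the same tumours that held the first 5 ranks for the T cell receptor genes. No correlation is given, since neither cluster has 6 tumours. Cd79a, a signalling chain of the B cell receptor, was at 0.283, 1.80 and 25.6 CPM with vehicle, 91.0, 45.0 and 0.208 CPM with TM, and 143, 1.06 and 83.9 CPM with AMD3100. Its range was wider than that of any member: vehicle tumour 1 and TM tumour 3 had nearly no Cd79a but 5.81 and 7.19 CPM of Cd3e.

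**Figure D3:**
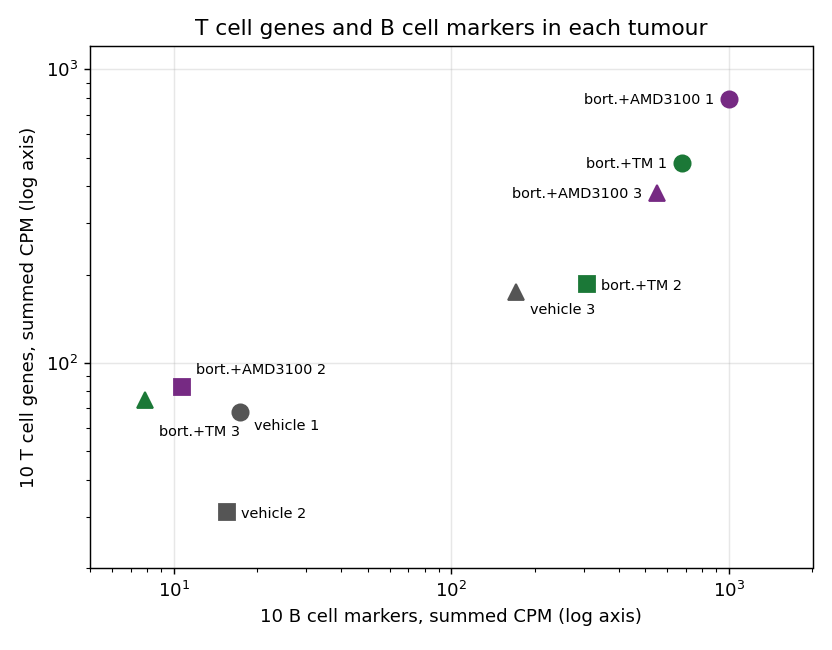
Summed level of the 10 T cell receptor complex genes against that of the 10 B cell markers in each tumour, in CPM on log axes, coloured by group. The 4 tumours with B cell markers at 17.3 CPM or less hold between 31.0 and 83.1 CPM of T cell receptor genes, and the other 5 hold between 174 and 792.

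With the mean log2 CPM of the B cell markers as a term in the fit, the members' differences were smaller and their errors narrower. For TM against vehicle the median over the members went from 1.45 to 0.50, and the SE from a range of 0.71 to 1.18 to one of 0.34 to 0.48. For AMD3100 against vehicle the median went from 2.22 to 0.87, and 4 of 10 members, Cd3e, Cd3g, Lck and Cd5, kept an unadjusted p under 0.05, where 4.85% of all genes had one. Cd3e was then 1.03 (SE 0.39) log2 units higher and Cd5 1.07 (SE 0.42). For AMD3100 against TM the median was 0.34. No member had an unadjusted p under 0.05 with this term against TM, where 4.02% of genes did, or for TM against vehicle, where 4.34% did. Each of the 10 genes stayed above 0 in all 3 comparisons with this term, and none was called (adjusted p 0.940 to 0.977, edgeR). The B cell level was measured in the same libraries as the members and is itself higher in the treated groups on average, so the term can also take up a difference between groups.

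Lymph node tissue holds both T and B cells, and its markers were read beside the members. Glycam1, a product of lymph node venules and also of mammary epithelium, was at 0.0944, 0.582 and 13.7 CPM with vehicle, 123, 172 and 0 CPM with TM, and 280.0, 0 and 275 CPM with AMD3100. The same 5 tumours were high. Ccl19, a chemokine of the lymph node T cell zone, was at 0, 0 and 1.67 CPM with vehicle and 0.371, 10.99 and 0 CPM with TM. With AMD3100 it was at 0.0879, 0 and 0.0389 CPM, so AMD3100 tumours 1 and 3, high in Glycam1, had nearly no Ccl19. Ccl21a, another such chemokine, was at 0 in all 9 tumours. Whether reads of Ccl21a were lost in counting cannot be told from the counts. Cxcl13, another of these markers, was at 0.897, 0.683 and 6.30 CPM with vehicle and 12.3, 16.1 and 1.27 CPM with TM. With AMD3100 Cxcl13 was at 17.5, 1.55 and 17.2 CPM. Madcam1 ran from 0.0506 to 3.01 CPM. The summed level of the 5 lymph node genes of the list found in the table ran from 1.18 to 22.2 CPM with vehicle. It ran from 1.71 to 201 CPM with TM and from 2.32 to 301 CPM with AMD3100. Glycam1 alone gave most of this sum in the 5 tumours where Glycam1 was high. The plasma cell gene Jchain, the joining chain of secreted antibody, was highest in TM tumour 1 at 701 CPM. The part of lymph node or B cell tissue in the T cell receptor levels was not tested beyond the fit with the B cell term.

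For markers of dendritic cells, which present antigen to T cells, the mean log2 CPM of the list was also above its average in those 5 tumours. In TM tumour 2 it was so by only 0.0056. Single markers differed: Itgax was highest in AMD3100 tumour 2, low in T cell receptor genes, at 98.1 CPM. Zbtb46 ran only from 6.82 to 8.55 CPM. Of the 6 markers, all tested and none at 0 in every tumour, 4, 6 and 3 were above 0 in TM against vehicle, AMD3100 against vehicle and AMD3100 against TM, with medians of 0.80, 0.70 and 0.0030 log2 units and no call. Their sum, of which Itgax gave the largest share, ran from 51.3 to 107 CPM with vehicle, 68.6 to 139 CPM with TM and 92.6 to 123 CPM with AMD3100. Flt3, a receptor of dendritic cell precursors, was at 2.74, 1.82 and 4.70 CPM with vehicle, 12.2, 4.67 and 1.17 CPM with TM, and 10.2, 1.70 and 8.41 CPM with AMD3100. Their part in the T cell receptor levels was not tested.

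Epithelial markers had medians below 0 against vehicle. Pearson r with the mean log2 CPM of the 10 T cell receptor genes, as a description over the 9 tumours, differed between them. It was -0.908 for Cdh1, -0.852 for Krt18, -0.845 for Krt8, -0.665 for Epcam, -0.345 for Krt14 and 0.156 for Krt5. The mean of the list did not run opposite to the T cell receptor genes in each tumour. Krt14 and Krt5 were both highest in TM tumour 2, at 19.9 and 8.22 CPM. The mean log2 CPM of the 6 markers, minus its mean over the 9 tumours, was 0.46 in TM tumour 2, high in T cell receptor genes. In AMD3100 tumour 2, low in those genes, it was -0.63. The 6 markers summed to 2102, 2369 and 1438 CPM with vehicle and to 1036, 1367 and 1849 CPM with TM. With AMD3100 they summed to 957, 1117 and 1227 CPM. Krt8 and Krt18 gave most of these sums. For AMD3100 against vehicle 0 of 6 were above 0, where 51% of genes were, with a median of -0.87 log2 units and none called. Krt8, Krt18 and Cdh1, the last encoding E-cadherin, had an unadjusted p under 0.05 there and all AMD3100 tumours below all vehicle tumours, as 7.34% of genes did. Their differences were -0.83 (SE 0.25), -0.84 (SE 0.22) and -0.98 (SE 0.32). For TM against vehicle 1 of 6 was above 0, with a median of -0.29. The part of the carcinoma cell content in the T cell receptor levels was not tested.

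**Figure D4:**
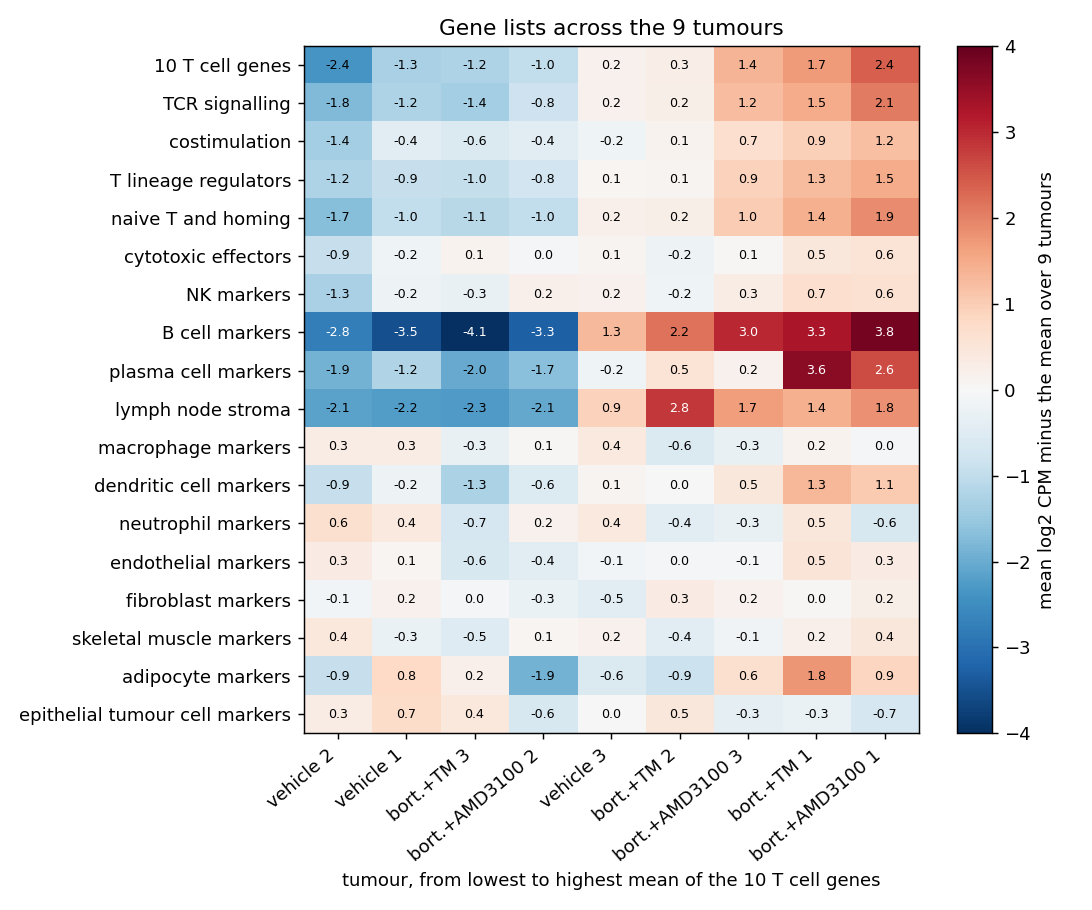
Mean log2 CPM of each gene list (rows) in each tumour (columns, from the lowest to the highest in T cell receptor genes) minus its mean over the 9 tumours, as colour and number. The T cell receptor, T cell signalling, B cell, lymph node and dendritic cell lists are all above their means in the same 5 tumours, vehicle 3, TM 1 and 2 and AMD3100 1 and 3. The dendritic cell list is above its mean in TM 2 by only 0.0056.

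The balance of the coreceptors was compared within tumours, as ratios of counts that scaling between libraries cannot move. Since transcript lengths differ, the ratios compare tumours and not the levels of the genes. The count ratio of Cd8a to Cd4 was 3.14, 1.62 and 1.87 in the vehicle tumours, 0.755, 1.35 and 4.36 with TM, and 0.782, 2.81 and 1.12 with AMD3100. The tumours richest in T cell receptor genes had the lowest ratios, and the groups overlapped. Cd4 is the divisor and also one of these genes, so a high Cd4 by itself lowers this ratio. Vehicle tumour 2, the poorest in these genes, did not have the highest ratio. On the log2 scale the ratio was 1.08 ± 0.50 with vehicle, 0.72 ± 1.29 with TM and 0.43 ± 0.95 with AMD3100 (SD, n = 3). TM was 0.36 below vehicle (-0.36, two-sided exact permutation p = 0.8), AMD3100 0.65 below vehicle (-0.65, p = 0.4) and 0.28 below TM (-0.28, p = 0.7). With 3 tumours against 3 the smallest p this exact permutation test can give is 0.1. Leaving out TM tumour 1 turned the first of these differences to 0.20, and leaving out AMD3100 tumour 1 or TM tumour 3 turned the last to 0.11 or 0.42.

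**Figure D5:**
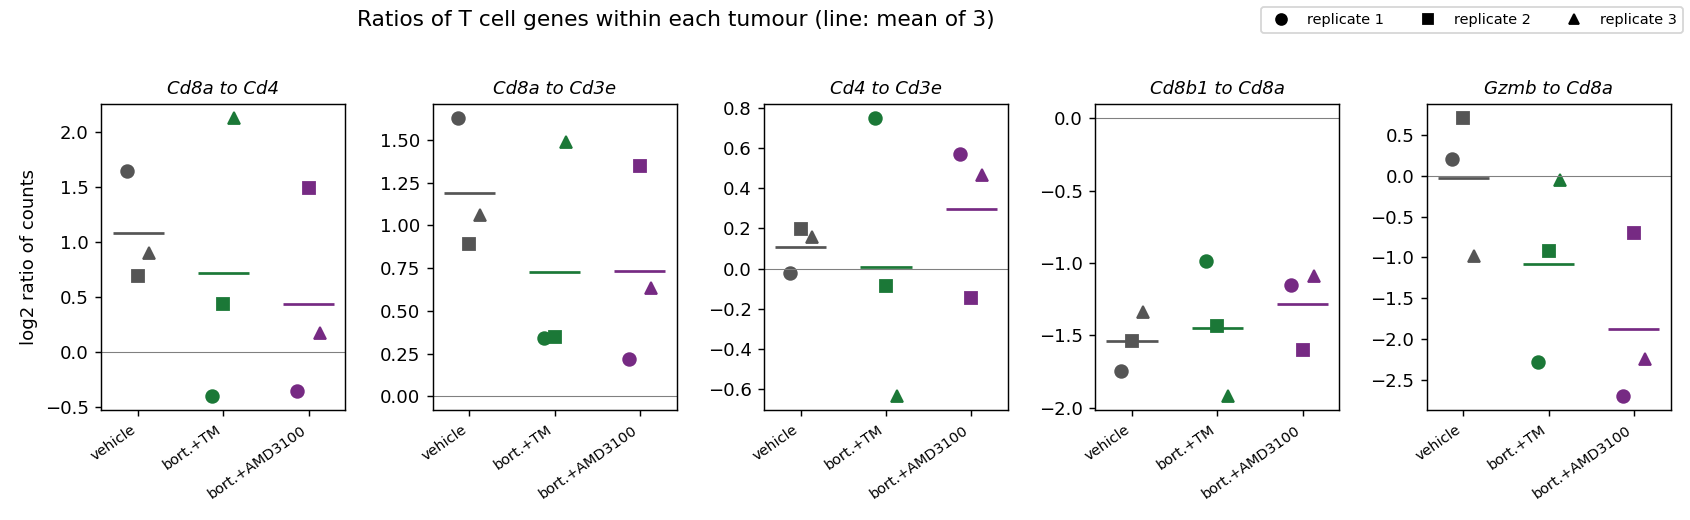
Count ratios between genes within each tumour on a log2 axis, with single tumours as points and group means as lines. The 3 groups overlap in each of the 5 ratios drawn, of which Cd8a to Cd4, Cd8a to Cd3e and Cd4 to Cd3e were tested.

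Relative to Cd3e, Cd8a was at 3.09, 1.85 and 2.08 in the vehicle tumours, 1.27, 1.27 and 2.81 with TM, and 1.16, 2.54 and 1.55 with AMD3100. Cd4 relative to Cd3e was at 0.984, 1.14 and 1.115 with vehicle, 1.68, 0.941 and 0.643 with TM, and 1.49, 0.905 and 1.38 with AMD3100. AMD3100 tumour 1 and TM tumour 1 had the highest ratios of Cd4 to Cd3e. The 6 differences between groups in these 2 ratios lay between -0.46 and 0.29 log2 units, with exact permutation p from 0.3 to 1.0, and over the 9 ratio tests the Benjamini-Hochberg values were 0.9 to 1.0. The ratio of Cd8b1 to Cd8a, the chains of one heterodimer, ran from 0.264 in TM tumour 3 to 0.506 in TM tumour 1. The ratio of Lck to Cd3e was 2.56, 2.91 and 2.82 in the vehicle tumours, 2.21, 2.41 and 2.36 with TM, and 2.44, 2.35 and 2.45 with AMD3100. All 3 vehicle tumours lay above all 6 treated ones in this ratio, which was computed as a description and not tested. The ratios of Cd28 and of Cd247 to Cd3e overlapped between vehicle and treated tumours. How many genes of the table separate in this way in a ratio to Cd3e was not computed.

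Cd8a was also the member least like the others over the 9 tumours. The log2 CPM of a member correlated with the mean of the other members at Pearson r of 0.954 for Cd8a to 0.998 for Cd3d, as a description over 9 tumours that share their libraries and fall into high and low ones. The lowest pair was Cd8a with Cd247, at 0.925. Among 13523 other genes with a mean of at least 1 CPM, the 10 most like the members' mean had r from 0.997 to 0.992 over the 9 tumours and included Fcho1, Traf3ip3, Cd27, Rasal3, Rac2, Pglyrp2, Ms4a4b and Cd52. Cd27 is a costimulatory receptor of lymphocytes, and Rac2 a small GTPase of blood cells.

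The wider list of T cell receptor signalling genes had 23 members, all tested and none called in any comparison. In order of TM against vehicle, AMD3100 against vehicle and AMD3100 against TM, 22, 23 and 23 of them were above 0, with medians of 1.56, 2.45 and 0.75 log2 units, and 0, 12 and 0 had an unadjusted p under 0.05, all higher. Over all genes tested 50.5%, 51% and 52% were above 0, and 2.29%, 4.03% and 1.39% were higher at that p (edgeR). These shares are the background of the list counts that follow. The most abundant were Ptprc, Csk, Plcg1 and Fyn. Ptprc encodes CD45, the phosphatase of all leukocytes that primes Lck, and was at 96.8, 69.2 and 158 CPM with vehicle, 397, 181 and 70.0 CPM with TM, and 488, 125 and 298 CPM with AMD3100. Its high tumours were those of the members. Fyn, a kinase related to Lck that other cells also express, had a narrower range of 43.1 to 119 CPM. Zap70, the kinase that binds the phosphorylated subunits, is named although it falls outside the rule for named genes and its values were seen. It was at 6.14, 1.92 and 17.3 CPM with vehicle, 40.4, 16.3 and 6.78 CPM with TM, and 77.4, 8.28 and 36.5 CPM with AMD3100.

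Of the 9 costimulation genes, 9, 8 and 7 were above 0 in the same order, with medians of 0.65, 1.03 and 0.31 log2 units and no call, and 2, 3 and 0 were higher at an unadjusted p under 0.05. Tnfrsf9, an inducible costimulatory receptor and the most abundant of them, was at 57.7, 37.0 and 38.2 CPM with vehicle, 42.0, 49.2 and 62.5 CPM with TM, and 37.4, 35.8 and 47.7 CPM with AMD3100. Its highest tumour was TM tumour 3, one of the 4 low in T cell receptor genes. Cd27 was at 3.00, 1.47 and 11.7 CPM with vehicle, 34.2, 12.9 and 2.52 CPM with TM, and 59.4, 3.15 and 28.8 CPM with AMD3100. Its order of tumours was near that of the members. Cd86, the ligand of Cd28 on antigen-presenting cells, had a narrower range, between 12.9 and 30.1 CPM. Among the 12 regulators of the T lineage 9, 9 and 10 were above 0, the medians were 1.00, 1.43 and 0.60 with no call, and 0, 4 and 1 were higher at an unadjusted p under 0.05. Tcf7, a factor of naive and memory T cells, reached 239 CPM in AMD3100 tumour 1 and was at 14.7 CPM in TM tumour 3. Zbtb7b and Gata3, which epithelial cells also express, had group means of 137 ± 10.2, 124 ± 14.3 and 127 ± 15.96 CPM and of 63.6 ± 20.5, 62.6 ± 11.9 and 47.4 ± 5.30 CPM (SD, n = 3) for vehicle, TM and AMD3100.

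The 5 genes of naive T cells and homing were all above 0 in the 3 comparisons, with medians of 1.09, 1.53 and 0.47 log2 units and no call, and 0, 1 and 0 were higher at an unadjusted p under 0.05. Ccr7, the receptor for the lymph node chemokines, was at 10.98, 4.96 and 23.8 CPM with vehicle, 66.1, 24.9 and 5.53 CPM with TM, and 109, 7.37 and 54.0 CPM with AMD3100. The tumours high in T cell receptor genes were also high in Ccr7. Relative to Cd3e, Ccr7 was at 1.89, 1.78 and 1.54 in the vehicle tumours, 1.38, 1.18 and 0.769 with TM, and 1.36, 0.941 and 1.501 with AMD3100. All 3 vehicle tumours were above all 6 treated ones in this ratio, which was not tested. It shares its divisor with the ratio of Lck to Cd3e, so the 2 separations are not independent. The share of genes that separate so was not computed.

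Genes of killing and effector function had smaller median differences, and their members were mixed. The 8 genes of this list had medians of 0.33, 0.54 and 0.083 log2 units, with 7, 7 and 5 above 0, no call, and 1, 1 and 0 higher at an unadjusted p under 0.05. Ccl5, a chemokine of activated T and NK cells and the most abundant of the list, was at 17.5, 8.55 and 13.5 CPM with vehicle, 21.2, 11.5 and 10.2 CPM with TM, and 39.2, 11.8 and 30.2 CPM with AMD3100. Its 3 highest tumours were those of the members, and its difference of AMD3100 from vehicle was 1.04 (SE 0.46; unadjusted p 0.048, adjusted p 0.634, edgeR). Nkg7, a granule membrane protein, had means of 7.38 ± 4.23, 12.4 ± 3.73 and 12.9 ± 4.99 CPM (SD, n = 3) for vehicle, TM and AMD3100. Gzma, another granule protease, named after its values were seen, had all 3 TM tumours above all 3 vehicle tumours, as 4.96% of genes did, with a difference of 1.22 (SE 0.53; unadjusted p 0.047, adjusted p 0.887, edgeR). Gzmb, a protease of cytotoxic granules, was at 20.6, 8.42 and 16.2 CPM with vehicle, 12.5, 14.1 and 19.4 CPM with TM, and 14.3, 12.2 and 11.8 CPM with AMD3100. Prf1, the pore-forming protein of the same granules, had means of 14.3 ± 8.39, 15.4 ± 2.83 and 16.6 ± 3.18 CPM (SD, n = 3) for vehicle, TM and AMD3100. Tumours high in Cd8a were not the ones highest in Gzmb: the ratio of Gzmb to Cd8a counts was 1.15, 1.63 and 0.505 in the vehicle tumours, 0.206, 0.528 and 0.961 with TM, and 0.153, 0.615 and 0.211 with AMD3100. It was lowest in AMD3100 tumour 1 and TM tumour 1, the tumours highest in Cd8a. Cd8a is the divisor, so a high Cd8a by itself lowers this ratio. NK cells also express Gzmb and Prf1, and the NK markers, of which 5 of 6 were tested, summed to 4.88 to 14.4 CPM with vehicle, 10.6 to 23.4 CPM with TM and 15.5 to 22.5 CPM with AMD3100. Klra8, an NK receptor, was at 0 in all 9 tumours, while the 5 tested NK markers had counts in every tumour. Why Klra8 had none was not tested, and its 0 is not a measure of NK cells. The part of NK cells in the Gzmb and Prf1 levels was not tested.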

How the data were processed

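Gene-level read counts were taken as deposited by the authors, in 1 table with a column for each of the 9 4T1 tumours. Per the submitters' processing notes and the labels' protocols, Trizol-extracted RNA was enriched for poly(A), read from both ends and counted per gene with featureCounts 2.0.1, with GRCm38 among the builds listed. Which aligner and annotation were used is not given in the sources used here. Of counts from 1 to 20, 58.0% to 66.1% were even, which would arise where both mates of a pair were counted, so counting error may be larger than the counts imply. Pairs of tumours in a group differed by more than sampling noise. The constant chains of the T cell receptor were not analysed here.

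The 9 tumours were fitted together with edgeR 4.0.16 in R 4.3.3 with 1 coefficient per group, after filterByExpr and with TMM scaling. Quasi-likelihood F tests were adjusted over all genes tested by the Benjamini-Hochberg method. CPM values are TMM-scaled, and log2 CPM used a prior count of 2. SE is the absolute log2 difference divided by the square root of F. Ratios used a pseudocount of 0.5. Alternatives were other scalings and filters, DESeq2 1.42.0, limma-voom (limma 3.58.1), a replicate block, a B cell term and leaving out each tumour. From each list the text names up to 4 genes with the highest mean CPM, since none was called, and the 10 genes most like the members. Genes outside that rule (Zap70, Gzma, Foxp3, Ccl21a, Klra8, Krt14 and Krt5) were chosen after their values were seen. Some genes that the rule names are not reported here. The members and lists were chosen with earlier results of these data known. The scripts were tested on simulated data, where recovery of changed genes was required only at a spread lower than that of the members. This does not show whether differences of the members' size could be called at their own spread.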

Additional observations from a re-analysis of the deposited data

How the results depend on the processing

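None of the 10 T cell receptor genes was called under any setting, in any of the 3 comparisons. The number of called genes in the table was 0 in each comparison with edgeR. With DESeq2 it was 3 for TM against vehicle, 17 for AMD3100 against vehicle and 6 between treated groups, and with edgeR it was 1 for AMD3100 against vehicle with only those 2 groups in the fit. Leaving out single tumours gave 0 to 1 called genes for TM against vehicle and 0 to 1 for AMD3100 against vehicle. Against vehicle all 10 members kept their direction under all settings run. Between the treated groups the differences of 7 members changed sign when single tumours were left out, with ranges of -0.0093 to 1.67 for Cd3d, -0.21 to 1.51 for Cd3e, -0.024 to 1.26 for Cd3g, -0.30 to 2.23 for Cd4, -0.12 to 1.54 for Lck, -0.12 to 2.14 for Cd5 and -0.34 to 1.72 for Cd28. The Cd8a to Cd4 ratio ranged from -1.07 to 0.20 for TM against vehicle and from -0.84 to 0.42 between treated groups. The Cd8a to Cd3e ratio ranged from -0.30 to 0.39 between treated groups, and the Cd4 to Cd3e ratio from -0.47 to 0.22 for TM against vehicle and from -0.033 to 0.66 between treated groups. The cause was not tested. The labels do not say whether replicate numbers pair the tumours. Same-numbered tumours of different groups had correlations of deviations from -0.47 to 0.60, and differently numbered ones from -0.63 to 0.66. Whether the tumours were paired cannot be told from these values. With the replicate number as a block, called genes were 0 in each comparison, the members' medians were 1.46, 1.95 and 0.39, and Cd28 between treated groups was -0.011. Neither the depth nor the number of tumours was varied beyond leaving out single tumours. The gene lists, the fit with the B cell term, the spread and the likeness were not recomputed without single tumours.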

Other observations

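Foxp3, the factor of regulatory T cells, was at 3.05, 2.38 and 4.61 CPM with vehicle, 17.1, 5.07 and 2.86 CPM with TM, and 21.3, 2.63 and 12.7 CPM with AMD3100. It was named after its values were seen. The ratio of Foxp3 to Cd4 counts was 0.534, 0.747 and 0.268 in the vehicle tumours, 0.213, 0.257 and 0.619 with TM, and 0.178, 0.372 and 0.257 with AMD3100. It was lowest in AMD3100 tumour 1 and TM tumour 1, the tumours with the most Cd4, and the groups overlapped. Cd4 is the divisor, so a high Cd4 by itself lowers this ratio, and Foxp3 too was highest in those tumours.

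Macrophage markers had another order of tumours than the T cell receptor genes. The 6 markers summed to 1603, 1698 and 1692 CPM with vehicle, 1443, 836 and 1040 CPM with TM, and 1281, 1330 and 1032 CPM with AMD3100. For TM against vehicle 0 of 6 were above 0, where 50.5% of all genes tested were, with a median of -0.53 log2 units. None was called, and 5 of 6 were lower at an unadjusted p under 0.05 (edgeR). Of the 15846 genes tested, 325 were lower at that p, and 4.34% passed it in either direction. For AMD3100 against vehicle 0 of 6 were above 0, where 51% of genes were, with a median of -0.26, none called and 1 of 6 lower at that p. In this comparison 506 of the 15846 genes were lower at that p, and 7.22% passed it in either direction.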
